A study of Mus musculus with 21 samples.

Results

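The endothelial cell genes were 34 genes of blood vessel lining cells, chosen by name for their known roles in endothelium and matched by mouse symbol to the 26852 Ensembl genes of a table of normalized expression values. All 34 had an entry. Endothelial cells line every vessel, seal it with junction proteins, and sense growth factors such as VEGF and angiopoietins through receptor tyrosine kinases. In bone marrow they form arterioles and a wide sinusoidal bed, whose cells take up waste through scavenger receptors and lie close to the perivascular stromal cells that make Cxcl12 and Kitl. Several of the genes are also made elsewhere: Cd34 by blood progenitors and stromal cells, Eng by stromal cells, Vwf and Selp by megakaryocytes, Pecam1 by platelets and leukocytes, and Stab1 by macrophages.

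The study followed how human acute myeloid leukaemia (AML) changes stromal cells of the mouse marrow. Bulk RNA sequencing was done on Nes-low mesenchymal cells, sorted from digested bone by the dim signal of a Nestin-GFP transgene after beads had removed human and mouse blood cells. HL60 and ML1 are established human AML lines that had been made to release a cell-penetrating mCherry protein, so that host cells near them take up the label. The 21 libraries fell into 7 groups of 3.

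All hosts were Nestin+ NSG mice, an immunodeficient strain without lymphocytes that here carried the Nestin-GFP reporter. The ctrl libraries (373, 374 and 375) came from untreated mice without a graft, whose age is not given. The other groups came from mice transplanted without conditioning at an age of 8 to 12 weeks. Early in the disease, cells without the label (ch–) and cells with it (ch+) were sorted apart, as HL60 ch– (527, 528 and 529), HL60 ch+ (523, 524 and 525), ML1 ch– (543, 544 and 546) and ML1 ch+ (538, 539 and 541). The ch– and ch+ cells are described as coming from the same marrows, but the labels do not match libraries to a mouse, so the fit treated the libraries as independent. Late in the disease, cells were taken with no selection on the label, as HL60 late (397, 398 and 399) and ML1 late (581, 582 and 583). The treatment label of all 3 ML1 late libraries calls them unengrafted, against their titles and their late time point, and they were kept as ML1 late. No value of that group can be given without the libraries that carry this label. Values are given below in the order of these library numbers. Cells were stained for CD31, the protein of Pecam1, but whether CD31-positive cells were gated out of the Nes-low sort is not stated, and the extraction label speaks of CD31-positive cells. The authors report a partial overlap of Nes-low with CD31 cells in mice without a graft, by flow cytometry and by correlation of expression.

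The values were regularized log2 normalized counts, from -2.33 to 22.44 over the table, and the read depth of each library is unknown. Regularization draws genes with few reads towards their mean, which makes their changes smaller than in the reads. The cells had the profile of mesenchymal stroma. Over all 21 libraries Cxcl12 averaged 15.84, Lepr 13.47 and Col1a1 19.27 log2 units. Per kilobase of exon, the scale used here to set genes side by side, Cxcl12 stood at 12.81, Pdgfrb at 9.25 and Nes itself at 4.64 log2 units. The endothelial genes lay below Cxcl12 and Pdgfrb. Eng was highest at 6.61 log2 units per kilobase, ahead of Ly6c1 at 6.35, Clec14a at 5.70, Cdh5 at 4.33 and Erg at 4.17. The defining endothelial gene Pecam1 stood at 2.77 per kilobase, at the 15.9th percentile of the genes tested, with Kdr at 2.14 and the long transcript of Vwf at -0.17. Eng, Ly6c1 and Clec14a were the only endothelial genes above the level of Nes per kilobase.

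**Figure D1:**
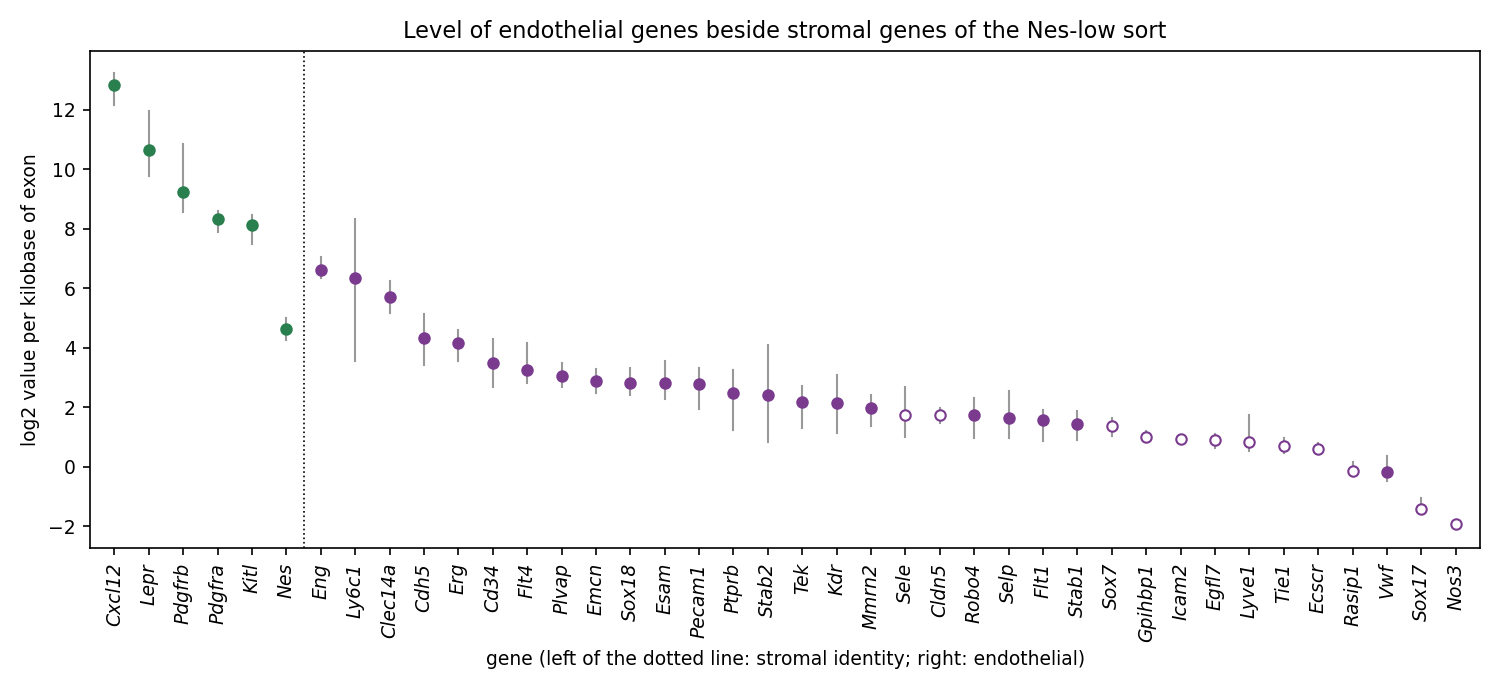
Mean level per kilobase of exon (log2) of 6 stromal genes and the 34 endothelial genes over 21 libraries, with lines for the range of the 7 group means and open symbols for genes under the minimum for testing. Cxcl12 stood at 12.81, Eng at 6.61 and Pecam1 at 2.77.

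Of the 34 endothelial genes, 22 reached a mean of 10 normalized counts (3.32 log2 units) over the 21 libraries and were tested among the 12976 genes that did so. The other 12 were Cldn5, Icam2, Tie1, Sox7, Sox17, Sele, Lyve1, Egfl7, Ecscr, Rasip1, Nos3 and Gpihbp1, with means of 0.11 to 3.28 log2 units. Sox18 lay just inside the minimum at 3.50 and Sele just outside at 3.28. Of all 34, 8 reached the minimum in no single library. A gene was called when limma gave an adjusted p under 0.1 over all genes tested in that comparison. In the deposited scaling, across 13 comparisons, 12 of the 22 tested genes were called at least once and 10 never were. The calls numbered 33, of which 13 were to the higher side and 20 to the lower. Higher calls outnumbered lower ones when libraries were scaled to the mean total. Late against ctrl there were then 6 higher and 1 lower in HL60, and 5 higher and 3 lower in ML1. In the deposited scaling ML1 late held the lowest group mean of 14 of the 22 tested genes and HL60 ch+ the highest of 13, against 2 and 9 when libraries were scaled to the mean total. The p-values measure only the spread between these samples, since the labels do not say whether the libraries of a group came from separate mice. In bulk RNA, a change in the number of endothelial cells in a sort cannot be told apart from a change in RNA per cell. Nor can either be told apart from a change in transcripts made by the stromal cells. Across the 21 libraries the median correlation between pairs of the 22 tested genes was 0.20, and pairs ran from -0.61 to 0.85. The median correlation of a gene with the others ran from -0.41 for Vwf to 0.58 for Cdh5.

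In the deposited scaling the mean over the 34 endothelial genes was lowest in ML1 late, an order that scaling to the mean total changed. It was 4.28 log2 units in ctrl, 4.13 in HL60 ch–, 4.58 in HL60 ch+ and 4.17 in HL60 late. In the ML1 groups it was 4.33 in ch–, 4.24 in ch+ and 3.75 in late. The 3 ML1 late libraries spanned 3.74 to 3.77, below all others, which lay between 4.05 and 4.61. Summed on the linear scale, the 34 genes came to 1700 normalized counts in ctrl, 2368 in HL60 ch+, 1830 in HL60 late and 1247 in ML1 late. When each library was scaled to the mean total they came to 1520, 2268, 2430 and 1961, with HL60 late the highest of all groups. The mean log2 levels scaled in this way were 4.12 in ctrl, 3.95 in HL60 ch–, 4.51 in HL60 ch+, 4.58 in HL60 late, 4.04 in ML1 ch–, 4.13 in ML1 ch+ and 4.41 in ML1 late, with HL60 ch– the lowest.

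The libraries also differed in their totals, and the late comparisons depended on how this was handled. Back on the linear scale the normalized counts of a library added to 7264989 to 7455312 in ML1 late, 8405654 to 9022185 in HL60 late and 11208179 to 14743456 in all the others. The most abundant gene, CT010467.1, held 16.8 to 22.6% of the total in ML1 late, 24.1 to 26.2% in HL60 late and 26.5 to 38.6% elsewhere. When each library was instead scaled to the mean total, the median change of all tested genes against ctrl, near 0 in the deposited scaling, became 0.84 in ML1 late and 0.58 in HL60 late. The share of called genes that were higher went with it, from 45.0% to 93.1% in ML1 late and from 47.1% to 93.1% in HL60 late. Against ch+ the medians became 0.79 and 0.47, and the shares went from 41.8% to 93.4% in ML1 and from 41.6% to 90.8% in HL60. With each library scaled to the mean total, the share of all tested genes called was 67.7% in ML1 late and 42.6% in HL60 late against ctrl, and 64% and 30.2% against ch+. Which of these scalings is nearer to the RNA content of the cells was not tested.

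Early in the disease no endothelial gene passed the test between unlabelled cells and ctrl. In HL60 ch– against ctrl 1.57% of all tested genes were called in limma, and 0 of the 22 endothelial genes. Of the 22, 3 had an unadjusted limma p under 0.05, beside 1388 of the 12976 genes tested. The median change of the 22 was -0.14 log2 units, beside 0.01 for all genes. In ML1 ch– against ctrl 2.34% of all tested genes were called and again 0 of 22 endothelial genes by limma, with a median of 0.04. At an unadjusted limma p under 0.05 there were 0 of the 22, beside 1643 of the 12976 genes tested. Scaling to the mean total called no endothelial gene in either and turned the ML1 median of the 22 to -0.09. The higher share of all called genes in ML1 went from 60.5% to 32.3%.

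The labelled cells, which had lain closest to the leukaemia, held more of some endothelial transcripts in HL60 mice, and of Ly6c1 alone in ML1 mice. Most of the HL60 genes leaned upwards without passing the test. Between HL60 ch+ and HL60 ch– 3.92% of all tested genes were called, and 4 of the 22 endothelial genes (18.2%), all higher: Cdh5, Ptprb, Stab2 and Ly6c1. With 1 library left out the count ran from 2 to 5. The median change of the 22 was 0.70 log2 units, beside -0.01 for all genes, and 18 of them leaned to the higher side. Against ctrl, HL60 ch+ had 5.33% of all genes called and 1 endothelial gene, Stab2, which was higher, with a median of 0.38. Between ML1 ch+ and ML1 ch– 4.25% of all genes were called and 1 endothelial gene (4.55%), Ly6c1, which was higher. The median of the 22 was -0.23 there, or -0.05 when scaled to the mean total. Against ctrl, ML1 ch+ had 6.69% of all genes called and again Ly6c1 alone, with a median of -0.12, or -0.06 when scaled in this way. Scaling to the mean total left these directions as they were and added Flt4 (1.46, adjusted p 0.0862) and Ly6c1 (adjusted p 0.0721) in HL60 ch+ against ctrl, and Flt4 (1.48, adjusted p 0.0961) between HL60 ch+ and ch–. The higher share of all called genes went from 53.9% to 70.3% there, from 57.8% to 74.8% between HL60 ch+ and ch–, and from 55.1% to 78.6% between ML1 ch+ and ch–.

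In the deposited scaling, ML1 late held less of many endothelial transcripts, while HL60 late held less of Ly6c1 and Stab2 but more of Eng, Erg and Clec14a in at least 1 comparison. Against ctrl, 22% of all tested genes were called in ML1 late. Of the 22 endothelial genes 10 (45.5%) were called, all lower in this scaling, but only 3 of them stayed called when scaled to the mean total. The 10 were Pecam1, Cdh5, Cd34, Kdr, Tek, Ptprb, Robo4, Stab2, Clec14a and Ly6c1. With any 1 of the 6 libraries left out the count was lower, at 4 to 8. The median over the 22 was -0.76, beside 0.03 for all genes. Scaled to the mean total, the same comparison turned to 5 higher (Emcn, Flt4, Eng, Erg and Vwf) and 3 lower, which were Ptprb (-0.81, adjusted p 0.0829), Stab2 (-1.09, adjusted p 0.0319) and Ly6c1 (-2.62, adjusted p 2.13e-06), Clec14a reversed to 0.19, and the median of the 22 became 0.05. The called share was then 36.4%, below the 67.7% of all genes. Against ML1 ch+, 16.9% of all genes were called in ML1 late and 7 endothelial genes (31.8%), all lower in this scaling. The 7 were Pecam1, Cdh5, Tek, Ptprb, Stab2, Clec14a and Ly6c1, of which only Ly6c1 stayed called when scaled to the mean total. With 1 library left out the 7 calls became 2 to 6. Scaled to the mean total, this comparison turned to 7 higher (Esam, Emcn, Flt4, Eng, Sox18, Vwf and Stab1) and Ly6c1 alone lower (-4.02, adjusted p 1.26e-09), and the median of the 22 went from -0.64 to 0.12. The called share there was 36.4%, below the 64% of all genes.

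In HL60 late against ctrl 13.7% of all genes were called and 3 of the 22 endothelial genes (13.6%), with Eng and Erg higher, Ly6c1 lower and a median of -0.13 that scaling to the mean total turned to 0.44. The share was that of the background, and with 1 library left out the count ran from 0 to 3. Scaled to the mean total there were 6 higher, namely Emcn, Flt4, Eng, Sox18, Erg and Clec14a, with Ly6c1 still lower (-0.84, adjusted p 0.0843). These calls were 31.8% of the 22, beside 42.6% of all genes. Against HL60 ch+, 10.2% of all genes were called in HL60 late and 3 endothelial genes, with Clec14a higher, Stab2 and Ly6c1 lower and a median of -0.58 that scaling to the mean total turned to -0.10. Scaled to the mean total, Clec14a and Eng were higher and Stab2 and Ly6c1 lower, 18.2% of the 22 beside 30.2% of all genes. The calls of Ly6c1 in late libraries of both lines were the only ones that held in both scalings and both late comparisons.

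**Figure D2:**
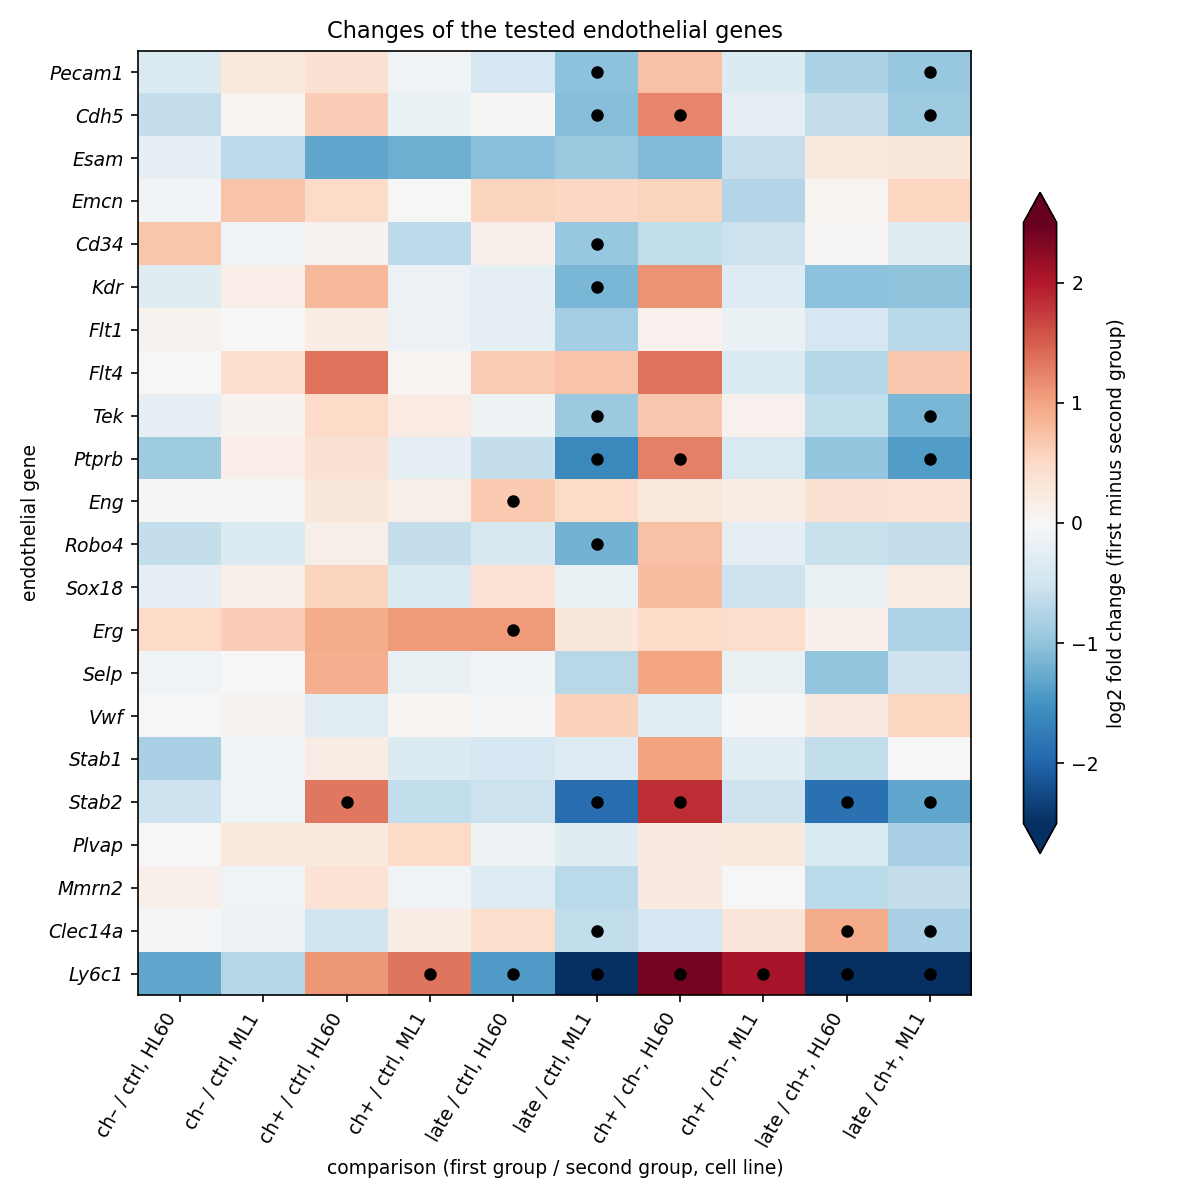
Log2 changes of the 22 tested endothelial genes (lines) in 10 comparisons within HL60 and ML1 (columns), with black dots for genes called by limma and colours that saturate at 2.5 log2 units. The largest change was that of Ly6c1 in ML1 late against ML1 ch+, -4.78.

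Among adhesion and junction genes, the defining genes Pecam1 and Cdh5 were followed in every library. Pecam1 encodes CD31, which joins endothelial cells to each other and to leukocytes (ENSMUSG00000020717, chr11:106654217-106750628, GRCm38 with GENCODE M21 genes, as for all positions here). Pecam1 measured 5.44, 5.33 and 6.00 in ctrl, then 4.87, 5.10 and 5.73 in HL60 ch–, 5.77, 6.21 and 5.91 in HL60 ch+, and 4.67, 5.22 and 5.60 in HL60 late. Pecam1 read 5.89, 5.72 and 5.93 in ML1 ch–, 5.78, 5.31 and 5.44 in ML1 ch+, and 4.54, 4.62 and 4.53 in ML1 late. All 3 ML1 late libraries lay below every other library. Pecam1 fell by 1.02 (SE 0.37, adjusted p 0.0541) on the log2 scale in ML1 late against ctrl, from 5.59 ± 0.36 to 4.57 ± 0.05 (SD, n = 3), and fell by 0.94 (SE 0.37, adjusted p 0.0982) against ML1 ch+. Its change against ctrl became -0.21 (adjusted p 0.627) when scaled to the mean total. The Pecam1 call against ctrl was lost without ctrl 375 or ML1 late 581, 582 or 583 (changes of -0.82 to -1.05, adjusted p 0.113 to 0.203), and that against ML1 ch+ without any 1 of its 6 libraries (adjusted p 0.114 to 0.242). Cdh5, or VE-cadherin, is the adhesion protein of endothelial junctions (ENSMUSG00000031871, chr8:104101625-104144511). Cdh5 measured 6.21, 6.37 and 7.11 in ctrl, then 6.01, 5.66 and 6.21 in HL60 ch–, 7.37, 6.75 and 7.43 in HL60 ch+, and 6.86, 6.65 and 6.24 in HL60 late. Cdh5 read 6.20, 6.48 and 7.18 in ML1 ch–, 6.82, 6.21 and 6.17 in ML1 ch+, and 5.42, 5.62 and 5.46 in ML1 late. The HL60 ch+ libraries all lay above the HL60 ch– libraries, and ML1 late lay below all other groups. Cdh5 was higher by 1.22 (SE 0.35, adjusted p 0.0573) in HL60 ch+ than in HL60 ch–, a call lost without HL60 ch– 527 or 528 or HL60 ch+ 523 or 525 (changes of 1.08 to 1.25, adjusted p 0.117 to 0.242). Against ctrl Cdh5 fell by 1.06 (SE 0.35, adjusted p 0.0339) in ML1 late. That call was lost without ctrl 375 (-0.79, adjusted p 0.188) and also when scaled to the mean total (-0.25, adjusted p 0.549). Cdh5 fell by 0.90 (SE 0.35, adjusted p 0.0955) against ML1 ch+, which did not hold without any 1 of the 6 libraries (adjusted p 0.107 to 0.296).

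Cd34 encodes a sialomucin of the cell surface (ENSMUSG00000016494, chr1:194938819-194961279). Cd34 measured 6.69, 6.03 and 6.68 in ctrl, then 7.02, 7.09 and 7.40 in HL60 ch–, 6.66, 6.17 and 6.83 in HL60 ch+, and 6.10, 6.87 and 6.80 in HL60 late. Cd34 read 6.51, 5.82 and 6.74 in ML1 ch–, 5.50, 6.04 and 5.92 in ML1 ch+, and 5.87, 5.07 and 5.63 in ML1 late. It was highest in HL60 ch– and lowest in ML1 late, whose libraries lay below all 3 of ctrl. Cd34 fell by 0.94 (SE 0.36, adjusted p 0.0668) in ML1 late against ctrl and was called nowhere else, and this call was lost without ctrl 373 or 375 or ML1 late 582 or 583 (changes of -0.72 to -1.00, adjusted p 0.113 to 0.284). The change became -0.13 (adjusted p 0.760) when scaled to the mean total. Esam, an immunoglobulin protein of tight junctions, had its lowest group mean in HL60 ch+, with means of 5.08 in ctrl, 4.87 in HL60 ch– and 3.77 in HL60 ch+. In the deposited scaling Esam was not called within a line (-1.30 in HL60 ch+ against ctrl, adjusted p 0.125), but with HL60 and ML1 pooled it was, at -1.26 (adjusted p 0.0594) in ch+ and -0.99 (adjusted p 0.0774) in late cells against ctrl. In late cells against ctrl, scaling to the mean total took the uncalled Esam changes of the separate lines from -1.05 to -0.48 in HL60 and from -0.93 to -0.12 in ML1. Esam was higher in ML1 late than in ML1 ch+ when scaled to the mean total, at 1.05 (adjusted p 0.0483). Emcn, a mucin of veins and capillaries, had group means between 4.92 and 5.70 and no call in the deposited scaling. Emcn was called higher on scaling to the mean total, in HL60 late at 1.12 (adjusted p 0.0437) and in ML1 late at 1.34 (adjusted p 0.00954) against ctrl, and at 1.30 (adjusted p 0.0128) in ML1 late against ML1 ch+. The tight junction claudin Cldn5 averaged 2.23 and the leukocyte ligand Icam2 1.86 log2 units, and both stayed under the minimum in every library.

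The receptors included the VEGF receptors Kdr, Flt1 and Flt4. Kdr encodes the main signalling receptor for VEGF-A (ENSMUSG00000062960, chr5:75932827-75978458). Kdr measured 5.36, 5.61 and 5.34 in ctrl, then 4.82, 4.77 and 5.78 in HL60 ch–, 5.73, 7.05 and 5.96 in HL60 ch+, and 5.90, 5.26 and 4.50 in HL60 late. Kdr read 5.30, 5.53 and 6.00 in ML1 ch–, 5.48, 5.25 and 5.16 in ML1 ch+, and 4.49, 4.05 and 4.32 in ML1 late. HL60 ch+ library 524 was the highest, and the ML1 late libraries lay below all of ctrl. Kdr fell by 1.15 (SE 0.42, adjusted p 0.0587) in ML1 late against ctrl, from 5.44 ± 0.15 to 4.29 ± 0.22, a call lost without ctrl 374 or ML1 late 582 or 583 (changes of -1.03 to -1.16, adjusted p 0.123 to 0.185). Flt1, which binds VEGF with little signalling of its own, had its lowest group mean in ML1 late (4.61, against 5.45 in ctrl) and no call. Flt4, the VEGF-C receptor of sinusoids and lymphatics, had its highest group mean in HL60 ch+ (7.21, against 5.85 in ctrl and 5.85 in HL60 ch–), with no call in the deposited scaling (adjusted p 0.128 against ctrl and 0.159 against HL60 ch–). Flt4 was also called higher late when scaled to the mean total, at 1.21 (adjusted p 0.0511) in HL60 and 1.53 (adjusted p 0.00828) in ML1 against ctrl, and at 1.43 (adjusted p 0.0143) in ML1 late against ML1 ch+.

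Tek encodes Tie2, the receptor of the angiopoietins (ENSMUSG00000006386, chr4:94739289-94874976). Tek measured 4.75, 4.55 and 4.08 in ctrl, then 4.70, 4.24 and 3.84 in HL60 ch–, 5.15, 5.14 and 4.53 in HL60 ch+, and 4.52, 4.29 and 4.17 in HL60 late. Tek read 4.52, 3.91 and 5.23 in ML1 ch–, 4.69, 4.47 and 4.82 in ML1 ch+, and 3.54, 3.73 and 3.31 in ML1 late. The ML1 late libraries lay below the 3 of ctrl and the 3 of ML1 ch+. Tek fell by 0.93 (SE 0.38, adjusted p 0.0990) in ML1 late against ctrl and fell by 1.13 (SE 0.38, adjusted p 0.0470) against ML1 ch+. Its change against ctrl became -0.12 (adjusted p 0.800) when scaled to the mean total. The Tek call against ctrl was lost without ctrl 373 or 374 or ML1 late 581, 582 or 583 (changes of -0.79 to -1.04, adjusted p 0.136 to 0.259), and that against ML1 ch+ without ML1 ch+ 541 or ML1 late 581 or 583 (changes of -1.02 to -1.14, adjusted p 0.112 to 0.171). Its partner Tie1 averaged 2.98 and was not tested. Ptprb encodes VE-PTP, the phosphatase that acts on Tie2 and on VE-cadherin junctions (ENSMUSG00000020154, chr10:116275523-116389535). Ptprb measured 6.41, 6.68 and 6.70 in ctrl, then 5.36, 5.22 and 6.54 in HL60 ch–, 6.78, 6.78 and 7.36 in HL60 ch+, and 6.53, 6.14 and 5.32 in HL60 late. Ptprb read 6.79, 6.52 and 6.98 in ML1 ch–, 6.79, 6.17 and 6.17 in ML1 ch+, and 4.86, 5.60 and 4.48 in ML1 late. HL60 ch+ lay above HL60 ch– without overlap, and library 529 alone of the ch– group came near it. Ptprb was higher by 1.27 (SE 0.40, adjusted p 0.0944) in HL60 ch+ than in HL60 ch–, which was lost without HL60 ch– 527 or 528 or HL60 ch+ 523, 524 or 525 (changes of 1.02 to 1.36, adjusted p 0.146 to 0.376). In ML1 late it fell by 1.62 (SE 0.40, adjusted p 0.00353) against ctrl, from 6.60 ± 0.16 to 4.98 ± 0.57, and stayed called whichever library was left out (adjusted p up to 0.0354). Ptprb fell by 1.40 (SE 0.40, adjusted p 0.0153) against ML1 ch+, a call lost without ML1 late 583 (-1.15, adjusted p 0.112).

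Robo4, a receptor that steadies vessels, lies on chromosome 9 (ENSMUSG00000032125, chr9:37401897-37415115). Robo4 measured 3.89, 4.11 and 5.68 in ctrl, then 4.28, 3.99 and 3.64 in HL60 ch–, 4.81, 4.78 and 4.52 in HL60 ch+, and 3.54, 5.27 and 3.65 in HL60 late. Robo4 read 3.95, 4.46 and 4.23 in ML1 ch–, 3.69, 4.25 and 3.99 in ML1 ch+, and 3.53, 3.48 and 3.12 in ML1 late. Library 375 of ctrl and library 398 of HL60 late stood far above the others of their groups. Robo4 fell by 1.19 (SE 0.45, adjusted p 0.0682) in ML1 late against ctrl, and this was lost without ctrl 375 or ML1 late 581, 582 or 583 (changes of -0.62 to -1.26, adjusted p 0.109 to 0.416). Eng, or endoglin, is a co-receptor of the TGF-beta family and also a stromal surface protein (ENSMUSG00000026814, chr2:32646595-32682669). Eng measured 8.64, 8.16 and 8.43 in ctrl, then 8.34, 8.52 and 8.43 in HL60 ch–, 8.40, 8.59 and 9.06 in HL60 ch+, and 9.15, 8.89 and 9.17 in HL60 late. Eng read 8.14, 8.27 and 8.68 in ML1 ch–, 8.85, 8.23 and 8.57 in ML1 ch+, and 8.91, 8.81 and 8.97 in ML1 late. Both late groups lay above all 3 ctrl libraries. Eng rose by 0.66 (SE 0.21, adjusted p 0.0425) in HL60 late against ctrl, from 8.41 ± 0.24 to 9.07 ± 0.16, a call lost without ctrl 374 or HL60 late 397 or 399 (changes of 0.54 to 0.62, adjusted p 0.135 to 0.183). In ML1 late the change of Eng was 0.49 and not called (adjusted p 0.127), but scaled to the mean total it was called, at 1.30 (adjusted p 5.05e-05).

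The transcription factors were Erg and the SoxF genes. Erg, an ETS factor that drives endothelial genes such as Cdh5, is also active in blood progenitors (ENSMUSG00000040732, chr16:95359169-95586593). Erg measured 5.83, 5.32 and 4.83 in ctrl, then 5.60, 5.58 and 6.23 in HL60 ch–, 6.86, 6.29 and 5.60 in HL60 ch+, and 6.44, 6.00 and 6.71 in HL60 late. Erg read 5.49, 6.28 and 6.06 in ML1 ch–, 6.49, 6.47 and 6.22 in ML1 ch+, and 5.55, 5.17 and 6.12 in ML1 late. All 3 HL60 late libraries lay above ctrl. Erg rose by 1.06 (SE 0.40, adjusted p 0.0928) in HL60 late against ctrl, which was lost without ctrl 374 or 375 or HL60 late 397 or 399 (changes of 0.81 to 1.05, adjusted p 0.164 to 0.310). The mean of Erg was as high in ML1 ch+ (6.39 ± 0.15) as in HL60 late (6.38 ± 0.36), without a call against ctrl (adjusted p 0.142). Sox18, the only SoxF gene tested, had group means of 3.09 to 4.01 log2 units and no call in the deposited scaling, but scaled to the mean total it was higher in HL60 late than in ctrl, at 0.94 (adjusted p 0.0560), and in ML1 late than in ML1 ch+, at 0.94 (adjusted p 0.0359). Sox7 averaged 3.10 and the arterial factor Sox17 0.84, and neither was tested.

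Of the genes for leukocyte and platelet capture, Vwf was the defining one. Vwf encodes the clotting protein stored with P-selectin in endothelial granules and in platelets (ENSMUSG00000001930, chr6:125546774-125686679). Vwf measured 3.99, 3.62 and 3.73 in ctrl, then 4.08, 3.69 and 3.52 in HL60 ch–, 3.15, 3.16 and 4.22 in HL60 ch+, and 3.73, 3.31 and 4.18 in HL60 late. Vwf read 3.48, 4.51 and 3.64 in ML1 ch–, 3.53, 4.15 and 3.79 in ML1 ch+, and 3.80, 4.84 and 4.46 in ML1 late. The groups overlapped throughout, with ML1 late library 582 the highest. In the deposited scaling no comparison called Vwf, whose change in ML1 late against ctrl was 0.59 (adjusted p 0.368), but scaled to the mean total it was called higher in ML1 late, at 1.40 (adjusted p 0.00644) against ctrl and 1.31 (adjusted p 0.0117) against ML1 ch+. P-selectin, from Selp, had its highest group mean in HL60 ch+ (4.69, against 3.79 in ctrl) and its lowest in ML1 late (3.11), with no call. E-selectin, from Sele, is induced by inflammation and was not tested. Its mean in ctrl (3.66) rested on library 375 at 5.00, the library in which Robo4 was also highest, and its group means ran from 2.54 in ML1 late to 4.21 in HL60 ch+.

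The scavenger gene of the sinusoids, Stab2, had 6 calls. Its protein clears hyaluronan from the blood (ENSMUSG00000035459, chr10:86841198-87008025). Stab2 measured 6.46, 5.20 and 5.96 in ctrl, then 5.06, 4.87 and 6.13 in HL60 ch–, 7.38, 6.89 and 7.33 in HL60 ch+, and 6.09, 5.20 and 4.71 in HL60 late. Stab2 read 5.62, 5.90 and 5.78 in ML1 ch–, 5.32, 5.13 and 5.33 in ML1 ch+, and 3.99, 4.37 and 3.54 in ML1 late. HL60 ch+ lay above every other library, at 6.89 or more, and the ML1 late libraries below all the others. Stab2 was higher in HL60 ch+ by 1.33 (SE 0.42, adjusted p 0.0829) than in ctrl and by 1.85 (SE 0.42, adjusted p 0.00940) than in HL60 ch–, the latter 3.61-fold. It then fell by 1.87 (SE 0.42, adjusted p 0.00385) from HL60 ch+ to HL60 late. In ML1 late Stab2 fell by 1.91 (SE 0.42, adjusted p 0.00124) against ctrl, from 5.87 ± 0.63 to 3.97 ± 0.41, and fell by 1.29 (SE 0.42, adjusted p 0.0390) against ML1 ch+. The rise over ctrl in HL60 ch+ was lost without ctrl 374 or 375 or HL60 ch+ 523, 524 or 525 (changes of 0.99 to 1.48, adjusted p 0.106 to 0.304), and the ML1 late call against ML1 ch+ without ML1 late 583 (-1.08, adjusted p 0.185). The other 3 of these calls held whichever library was left out. Stab1, its relative in sinusoids and macrophages, showed group means of 4.24 in HL60 ch– to 5.23 in HL60 ch+, without a call in the deposited scaling, and was higher in ML1 late than in ML1 ch+ when scaled to the mean total, at 0.77 (adjusted p 0.0879). Plvap, which forms the diaphragms of capillary pores, ranged over group means of 3.65 to 4.46, also without a call. The hyaluronan receptor Lyve1 was not tested and had its highest mean, 3.26, in ML1 ch+ (2.89, 3.54 and 3.35), against 2.14 in ctrl.

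Clec14a is a C-type lectin of the endothelial surface that binds the matrix protein Mmrn2 (ENSMUSG00000045930, chr12:58264720-58269290). Clec14a measured 8.23, 7.86 and 7.87 in ctrl, then 7.72, 8.20 and 7.89 in HL60 ch–, 7.58, 7.03 and 7.86 in HL60 ch+, and 8.51, 8.02 and 8.73 in HL60 late. Clec14a read 8.19, 7.70 and 7.72 in ML1 ch–, 8.24, 8.31 and 7.96 in ML1 ch+, and 7.25, 7.50 and 7.35 in ML1 late. HL60 late library 399 was the highest of all, and each ML1 late library lay below those of ctrl and of ML1 ch+. Clec14a rose by 0.93 (SE 0.25, adjusted p 0.0175) from HL60 ch+ to HL60 late, a call lost without HL60 ch+ 524 or HL60 late 399 (changes of 0.70 to 0.78, adjusted p 0.128 to 0.149). It fell by 0.80 (SE 0.25, adjusted p 0.0303) from ML1 ch+ to ML1 late, which was lost without ML1 ch+ 539 or ML1 late 581 (changes of -0.73 to -0.74, adjusted p 0.103 to 0.110), and which scaling to the mean total changed to -0.04 (adjusted p 0.897). Against ctrl Clec14a fell by 0.62 (SE 0.25, adjusted p 0.0927) in ML1 late, a call that each of the 6 libraries left out in turn removed (adjusted p 0.111 to 0.265) and that reversed to 0.19 on scaling to the mean total. Mmrn2 had group means from 3.37 in ML1 late to 4.40 in HL60 ch+ and no call within a line, but with the lines pooled it was lower in late than in ch+ cells, at -0.63 (adjusted p 0.0657). Scaling to the mean total took the uncalled Mmrn2 changes from ch+ to late from -0.67 to -0.20 in HL60 and from -0.59 to 0.17 in ML1.

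Ly6c1, which encodes a GPI-anchored surface protein of endothelial and some blood cells, changed the most of all the endothelial genes, with 8 calls (ENSMUSG00000079018, chr15:75044018-75048830). Ly6c1 measured 7.16, 8.39 and 7.63 in ctrl, then 6.42, 7.11 and 5.77 in HL60 ch–, 8.78, 9.52 and 8.19 in HL60 ch+, and 6.25, 6.54 and 6.16 in HL60 late. Ly6c1 read 7.60, 6.26 and 7.16 in ML1 ch–, 8.58, 9.51 and 9.13 in ML1 ch+, and 4.39, 4.24 and 4.25 in ML1 late. In both lines the ch+ libraries lay above the ch– libraries and the late libraries below the ch+ libraries, and ML1 late stood far under everything else. Ly6c1 was higher in ch+ than in ch– by 2.39 (SE 0.39, adjusted p 1.94e-04) in HL60 mice, or 5.26-fold. In ML1 mice the same difference was 2.07 (SE 0.39, adjusted p 0.00119), or 4.19-fold, and the step over ctrl was 1.35 (SE 0.39, adjusted p 0.0400). Late in the disease Ly6c1 fell by 2.51 (SE 0.39, adjusted p 4.00e-05) from the ch+ level in HL60 mice and fell by 4.78 (SE 0.39, adjusted p 8.50e-11) in ML1 mice. Against ctrl it fell by 1.41 (SE 0.39, adjusted p 0.0153) in HL60 late and fell by 3.43 (SE 0.39, adjusted p 6.12e-08) in ML1 late, where the mean dropped from 7.73 ± 0.62 to 4.29 ± 0.08. The HL60 late call against ctrl was lost without ctrl 374 (-1.08, adjusted p 0.121), and the ML1 ch+ call against ctrl without ctrl 373 or 375 or ML1 ch+ 539 or 541 (changes of 1.06 to 1.32, adjusted p 0.103 to 0.193). All other calls of Ly6c1 held whichever library was left out.

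Ly6c2, a close copy of Ly6c1 on the same chromosome (chr15:75108158-75111970), was looked up after the values of Ly6c1 had been seen, because short reads of such copies can be shared out between them. Ly6c2 measured 3.72, 4.29 and 4.03 in ctrl, then 2.96, 4.27 and 2.97 in HL60 ch–, 4.15, 5.72 and 4.62 in HL60 ch+, and 3.89, 3.64 and 3.36 in HL60 late. Ly6c2 read 5.08, 3.20 and 3.76 in ML1 ch–, 4.71, 5.63 and 4.87 in ML1 ch+, and 2.77, 3.08 and 2.90 in ML1 late. The ctrl, ML1 ch+ and ML1 late groups stood in the same order as for Ly6c1, with smaller steps. Unlike for Ly6c1, the ML1 ch– and ML1 ch+ libraries overlapped. Ly6c2 was called only in ML1 late against ML1 ch+, with -2.15 (adjusted p 0.00114). Its change in ML1 late against ctrl was -1.10 (adjusted p 0.110), and that between HL60 ch+ and ch– was 1.43 (adjusted p 0.109). Between ML1 ch+ and ch– it was 1.05 (adjusted p 0.286), and in HL60 late against ctrl -0.38 (adjusted p 0.720). How reads were divided between the copies was not tested.

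The remaining membrane and signalling genes lay low in the table. Egfl7, which encodes a matrix protein secreted by endothelium, averaged 2.74 log2 units, the lipase anchor Gpihbp1 2.36, the junction regulator Rasip1 1.53, the surface protein Ecscr 1.38 and the nitric oxide synthase Nos3 0.11. None of these 5 reached the minimum in any library, and their changes could not be tested.

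**Figure D3:**
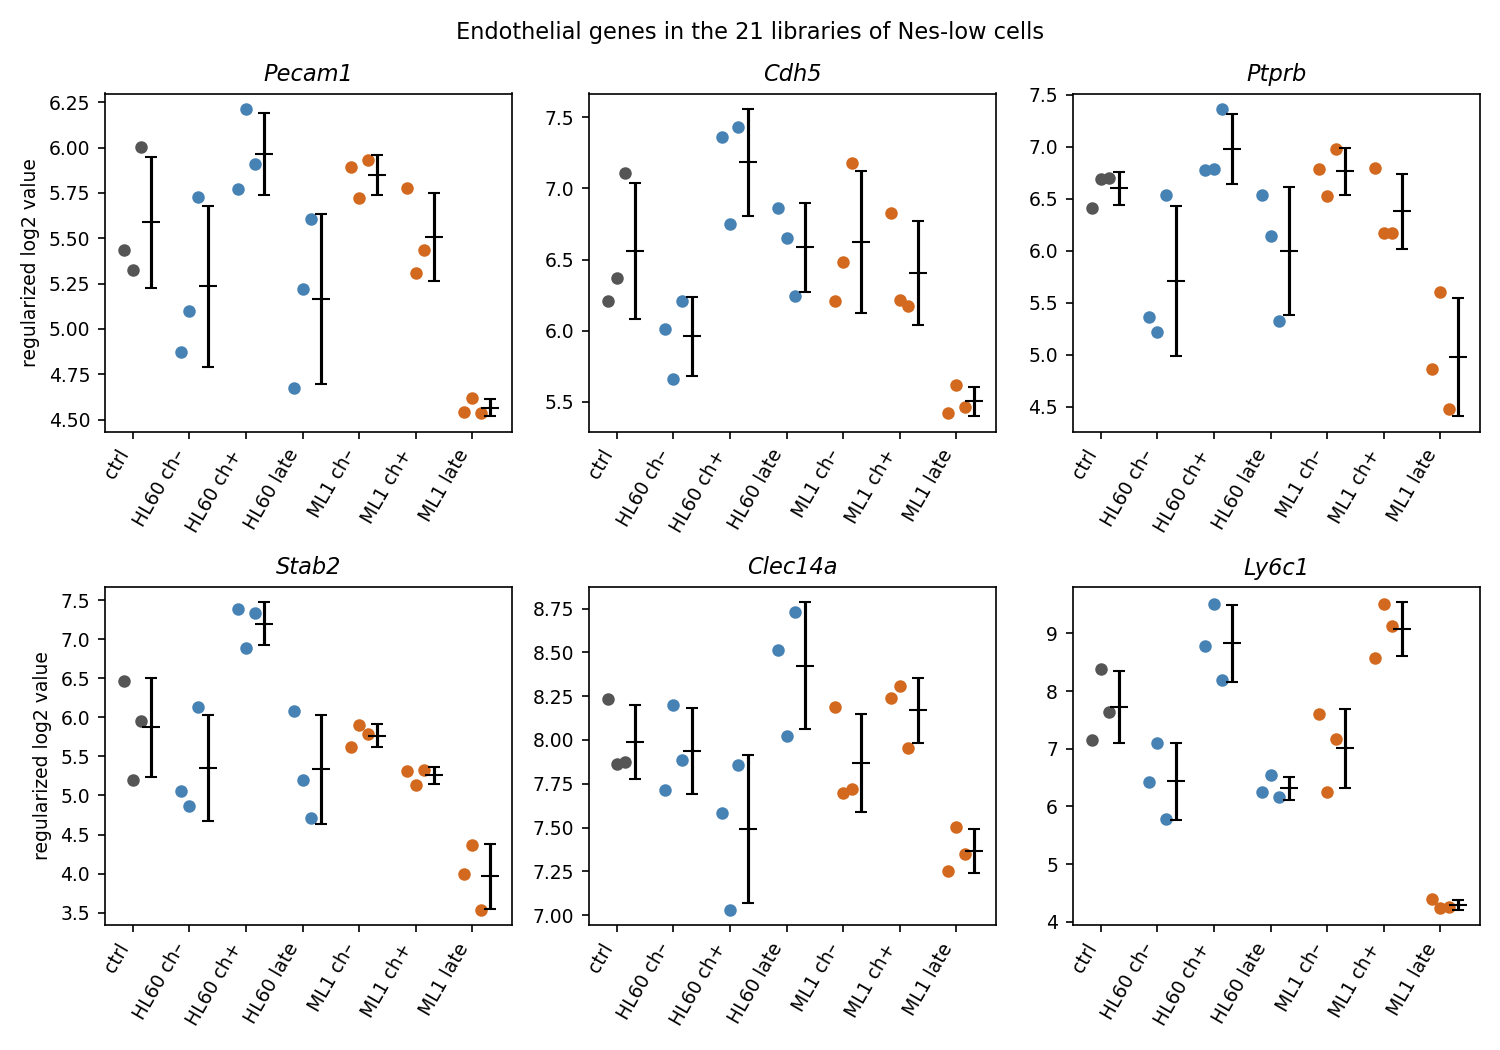
Regularized log2 values of Pecam1, Cdh5, Ptprb, Stab2, Clec14a and Ly6c1 in each library (dots) of the 7 groups, with mean and SD as bars. The ML1 late libraries of Ly6c1 sit at 4.24 to 4.39, under all others.

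HL60 and ML1 were also set against each other directly, and endothelial genes were called only late in the disease. Between HL60 ch– and ML1 ch– 0.0539% of all genes were called in limma and 0 endothelial genes. At an unadjusted limma p under 0.05 lay 2 of the 22, beside 885 of the 12976 genes tested. Scaling to the mean total took the higher share of the called genes there from 71.4% to 85.7%. Between HL60 ch+ and ML1 ch+ 0.0154% of all genes and 0 endothelial genes were called by limma. At an unadjusted limma p under 0.05 lay 8 of the 22, beside 988 of the 12976 genes tested. The median of the 22 was 0.48 log2 units, beside 0.01 for all genes. Stab2 stood highest there at 1.94 (adjusted p 0.175). Between HL60 late and ML1 late the median over the 22 was 0.61, or 0.37 when scaled to the mean total. Of all genes 4.09% were called there, and 3 endothelial genes, all higher in HL60. They were Ly6c1 at 2.02 (SE 0.39, adjusted p 0.00107), Clec14a at 1.06 (SE 0.25, adjusted p 0.0113) and Stab2 at 1.37 (SE 0.42, adjusted p 0.0825). Scaling to the mean total took the share of all called genes that were higher in HL60 from 77.2% to 37.0%, and Stab2 lost its call (1.12, adjusted p 0.168) while the other 2 kept theirs. The Stab2 call was also lost without HL60 late 397 or 398 or ML1 late 581 or 583 (changes of 0.99 to 1.43, adjusted p 0.171 to 0.492), and that of Clec14a without HL60 late 399 (0.90, adjusted p 0.105).

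Whether a change itself differed between the lines was asked in a pair of tests added after the values had been seen. For the step from ch– to ch+, 0.00771% of all genes (1 gene) and 0 endothelial genes were called by limma. An unadjusted limma p under 0.05 was found for 11 of the 22, beside 831 of the 12976 genes tested. The median of HL60 change minus ML1 change was 0.77 log2 units over the 22, beside 0.01 for all genes. The largest was Stab2 at 2.36 (SE 0.60, adjusted p 0.527). So the calls of Cdh5, Ptprb and Stab2 in HL60 ch+ alone were not shown to be particular to HL60. For the step from ch+ to late, 2.5% of all genes were called and 2 endothelial genes, with a median of 0.04. Clec14a differed by 1.73 (SE 0.36, adjusted p 0.00415), having risen by 0.93 in HL60 and having changed by -0.80 in ML1. Ly6c1 differed by 2.27 (SE 0.55, adjusted p 0.0209), with the deeper loss in ML1.

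A wider list of 43 further endothelial genes, of which 34 were tested, moved in both directions. Its most abundant gene was the semaphorin and VEGF co-receptor Nrp2 at 13.22 log2 units, near the level of the stromal gene Lepr. Whether endothelial or stromal cells made the transcripts of this list was not tested. In late libraries against ctrl the calls were 7 higher and 8 lower in ML1 and 5 higher and 6 lower in HL60, shares of 44.1% and 32.4% beside 22% and 13.7% of all genes. Scaled to the mean total they became 11 higher and 5 lower in ML1 and 13 higher and 5 lower in HL60, shares of 47.1% and 52.9% beside 67.7% and 42.6%. Between ch+ and ch– the calls were 6 higher and 2 lower in HL60 and 3 higher and 5 lower in ML1, 23.5% of the list in each beside 3.92% and 4.25% of all genes. After scaling to the mean total they were 7 higher and 0 lower in HL60 and 4 higher and 3 lower in ML1. These were 20.6% of the list in each line, beside 4.22% and 5.83% of all genes. The largest changes were those of Ly6a, a relative of Ly6c1, at -3.21 (adjusted p 5.89e-10) in ML1 late against ML1 ch+, and of the arterial ligand Efnb2 at -2.70 (adjusted p 8.91e-08) in the same comparison. Nrp1 stood at 2.43 (adjusted p 7.75e-14) in ML1 late against ctrl, and the adhesion gene Mcam at -2.39 (adjusted p 1.40e-04) in ML1 ch+ against ctrl. The list's mean level was 6.14 in ctrl, 6.12 in HL60 late and 5.92 in ML1 late, or 5.98, 6.52 and 6.58 when scaled to the mean total.

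Ligands for the endothelial receptors, 12 genes with 10 tested, had calls in both directions. The calls against ctrl were 4 higher and 0 lower in HL60 late and 5 higher and 1 lower in ML1 late, shares of 40% and 60% beside 13.7% and 22% of all genes. On scaling to the mean total they became 7 higher and 0 lower in each (70%), beside 42.6% and 67.7% of all genes. Against ch+ they were 2 higher and 0 lower in HL60 late and 2 higher and 3 lower in ML1 late, shares of 20% and 50% beside 10.2% and 16.9% of all genes, and became 5 higher and 0 lower in HL60 late, 6 higher and 1 lower in ML1 late, when scaled to the mean total. Vegfc, the ligand of Flt4, changed by 1.60 (adjusted p 1.02e-04) in HL60 late against ctrl. Angpt2, which binds Tek, changed by 1.88 (adjusted p 6.37e-06) in ML1 late against ML1 ch+, and the Flt1 ligand Pgf by 1.38 (adjusted p 0.0479). Vegfd differed by 2.70 (adjusted p 0.0249) between ML1 ch+ and ML1 ch–, and by -2.66 (adjusted p 0.00758) between ML1 late and ML1 ch+.

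Genes of other cells that share some of these transcripts were measured in the same libraries. Of 14 megakaryocyte and platelet genes 3 were tested, and the defining markers Pf4 at 2.62, Gp9 at -0.39 and Treml1 at -1.87 log2 units were low. Their most abundant gene was Itgb3 (8.03), and in the deposited scaling none was called in ML1 late against ctrl. Elsewhere in ML1, Itgb3 changed by 1.11 (adjusted p 0.0450) in ch– against ctrl and by -1.17 (adjusted p 0.0158) in ch+ against ch–, and Ppbp by -1.56 (adjusted p 0.0759) in late against ch+. Ppbp lost that call on scaling to the mean total (-0.80, adjusted p 0.233), and Itgb3 was higher in ML1 late, at 1.29 (adjusted p 7.17e-04) against ctrl and 1.30 (adjusted p 8.00e-04) against ch+, and in HL60 late, at 0.95 (adjusted p 0.0160) and 0.87 (adjusted p 0.0347). Of 12 macrophage genes 4 were tested, with Adgre1 at 0.41, C1qa at -1.47 and Cd5l at -2.23, and with Vcam1, also a stromal gene, the most abundant at 12.08. The macrophage list summed to 2976 to 4018 in ctrl, 2953 to 6693 in the early libraries and 7070 to 10652 in the late ones. Its mean log2 level was 3.10 in ctrl, 3.20 in HL60 late and 3.19 in ML1 late, or 2.94, 3.60 and 3.84 when scaled to the mean total. Of the 4 tested, 2 were higher and 0 lower in HL60 late against ctrl, beside 13.7% of all genes called. In ML1 late the calls were 2 higher and 1 lower, beside 22%. With each library scaled to the mean total they were 2 higher and 0 lower in each line (50%), beside 42.6% and 67.7% of all genes. Red cell genes, 10 of 10 tested and led by Hbb-bs (9.13), summed to 350 to 723 normalized counts in ctrl, 4427 to 13000 in the early libraries and 112 to 156 in the late ones. Of these 10, 8 were higher in HL60 ch– and all 10 in ML1 ch– against ctrl, beside 1.57% and 2.34% of all genes called. With each library scaled to the mean total 7 were higher in each, beside 1.37% and 2.6% of all genes. No endothelial gene was called in either comparison. Neutrophil and myeloid genes, 11 of 12 tested and led by Lyz2 (8.26), summed to 308 to 669 in ctrl, 1330 to 3618 in the early libraries and 223 to 454 in the late ones. From ch+ to late 10 of them were lower in each line, beside 10.2% of all genes called in HL60 and 16.9% in ML1. Between ch+ and ch– the calls were 1 higher and 0 lower in HL60, beside 3.92% of all genes. In ML1 they were 0 higher and 0 lower, beside 4.25%. The part of these cells in the endothelial changes was not tested.

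The stromal cells themselves also changed beside the endothelial genes. Among 12 stromal identity genes led by Col1a1, the calls were 7 higher and 1 lower in HL60 late against ctrl and 8 higher and 2 lower in ML1 late, shares of 66.7% and 83.3% beside 13.7% and 22% of all genes. Scaling to the mean total turned these calls to 10 higher and 1 lower in HL60 late (91.7%) and 11 higher and 1 lower in ML1 late (100%), beside 42.6% and 67.7% of all genes. Col1a1 was lower, at -1.67 (adjusted p 1.39e-08) in HL60 late and -4.17 (adjusted p 3.82e-18) in ML1 late against ctrl, and the list summed to 1381938 normalized counts in ctrl, 541047 in HL60 late and 204840 in ML1 late, or 1225905, 715778 and 321777 when scaled to the mean total. Among 10 pericyte and smooth muscle genes led by Rgs5, they were 0 higher and 6 lower between HL60 ch+ and ch–, and 0 higher and 5 lower between ML1 ch+ and ch–, shares of 60% and 50% beside 3.92% and 4.25% of all genes, and 0 higher and 4 lower in each line when scaled to the mean total. Their part in the endothelial changes was not tested either.

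Because ETS factors such as Erg bind GGAA, the promoters of the endothelial genes were read for these letters. RefSeq (GRCm38.p6) gave 24 windows of 250 bases before a start for 19 of the 34 genes. GGAA on either strand (TTCC on the printed one) lay in 22 of the 24 windows (91.7%) and in 93.4% of all 32851 promoters. The longer AGGAAG, which contains GGAA, lay on either strand in 15 of 24 (62.5%) and in 29.5% of all promoters. Windows of 3 genes called in the deposited scaling, of which Kdr (-0.33, adjusted p 0.489) and Robo4 (-0.37, adjusted p 0.460) lost the ML1 late call against ctrl when scaled to the mean total, are printed to show where the letters lie, from 5′ to 3′ with GGAA and TTCC in capitals: Stab2 (chr10:87007943-87008192, minus strand, 6 copies), Kdr (chr5:75978456-75978705, minus strand, 4 copies) and Robo4 (chr9:37401722-37401971, plus strand, 3 copies). Of the longer AGGAAG, the printed windows of Stab2 and Robo4 held 1 copy each and that of Kdr 0. Whether these letters went with the calls was not tested. A match is a description of the letters and not a site of binding.
Stab2: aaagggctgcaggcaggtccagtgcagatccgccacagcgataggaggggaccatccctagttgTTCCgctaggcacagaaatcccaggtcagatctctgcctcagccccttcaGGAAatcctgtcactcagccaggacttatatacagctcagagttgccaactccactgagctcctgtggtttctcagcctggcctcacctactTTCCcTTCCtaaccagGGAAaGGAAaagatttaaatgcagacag
Kdr: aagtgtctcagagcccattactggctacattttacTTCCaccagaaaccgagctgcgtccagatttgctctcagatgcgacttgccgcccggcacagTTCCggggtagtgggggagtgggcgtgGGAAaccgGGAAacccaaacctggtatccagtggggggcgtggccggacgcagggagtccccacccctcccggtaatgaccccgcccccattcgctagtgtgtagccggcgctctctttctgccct
Robo4: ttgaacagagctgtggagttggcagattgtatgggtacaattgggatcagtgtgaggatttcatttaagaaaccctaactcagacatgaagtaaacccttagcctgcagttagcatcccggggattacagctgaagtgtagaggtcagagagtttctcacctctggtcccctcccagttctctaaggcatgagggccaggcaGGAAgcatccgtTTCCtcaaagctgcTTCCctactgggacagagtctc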

How the data were processed

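RNA sequencing of Nes-low marrow cells gave 21 libraries in 7 groups of 3, and no replicate was pooled. The deposited values are log2 normalized counts, which the authors made by alignment with STAR 2.5.1b to mm10, gene counts from RSEM 1.2.29, and scaling by size factors and regularization in DESeq2 (1.10.1 in the submitters' processing notes). The authors' methods name log10, but values up to 22.44 fit log2 only. Read depth per library is unknown, so no counting interval is given. Genes with a mean of at least 10 normalized counts were fitted in R 4.3.3 with limma 3.58.1 (1 fit of 7 groups, two-sided, trend on the mean, Benjamini-Hochberg over 12976 genes per comparison, called at an adjusted p under 0.1). Pooled estimates of spread stand behind every test of 3 libraries against 3. The code was tested on simulated data. Figures and promoter counts used Python 3.11.15 and matplotlib 3.10.9.

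There were 13 planned comparisons, and 2 tests of HL60 change minus ML1 change were added after the values had been seen, as were levels and calls of the lists scaled to the mean total and a block by the order of library numbers. Alternatives were no filter, quantile normalization, scaling to the mean library total, a fit of the compared groups alone, an adjusted p under 0.05, leaving out each library, and pooling HL60 with ML1. All 34 genes are accounted for. Values in every library are printed for genes called most often (at most 14) and for Pecam1, Cdh5, Kdr and Vwf, and at most 4 genes with the largest changes are named by rule from each other list. Top genes, near-zero markers, stromal genes and Ly6c2 were named besides, Ly6c2 after its values were seen. Levels between genes were compared per kilobase of GENCODE M21 exon. The members and lists were chosen with earlier results of these data known.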

Additional observations from a re-analysis of the deposited data

Results flagged for a closer look

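Differences between HL60 and ML1 that passed their test drew a closer look. Late in the disease Stab2 was higher in HL60 than in ML1 by 1.37 log2 units, Clec14a by 1.06 and Ly6c1 by 2.02, each a direct test of HL60 late against ML1 late. Scaled to the mean total, Ly6c1 at 1.78 (adjusted p 0.00354) and Clec14a at 0.81 (adjusted p 0.0969) kept their calls, and Stab2 lost its own (1.12, adjusted p 0.168). The Stab2 call was also lost without any 1 of 4 of its 6 libraries, and that of Clec14a without HL60 late 399. The change from ch+ to late also differed between the lines, by 1.73 for Clec14a and by 2.27 for Ly6c1 (HL60 change minus ML1 change), and both calls held when scaled to the mean total, at 1.44 (adjusted p 0.0373) and 1.98 (adjusted p 0.0435). The treatment label of the ML1 late libraries contradicts their title. Their totals (7264989 to 7455312) and summed red cell genes (112 to 123) lay nearer to those of HL60 late (8405654 to 9022185 and 114 to 156) than to those of ctrl (11862642 to 14229380 and 350 to 723). The grafted early libraries had totals of 11208179 to 14743456 and red cell sums of 4427 to 13000. Neither measure therefore tells a graft from none, and which label is right was not tested.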

How the results depend on the processing

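Quantile normalization kept 32 of 35 called values past the threshold, no filter 27, the compared groups alone 28, an adjusted p under 0.05 22, scaling to the mean total 21 and the pooled lines 13 of 30. Leaving out a library kept 143 of 222, and none reversed. Counts of called endothelial genes became: with no filter, 0 in HL60 ch+ against ctrl and 1 for the line difference of late against ch+, where more genes share the adjustment; scaled to the mean total, 3 in HL60 ch+ and 7 in HL60 late against ctrl; with the compared groups alone, 2 between HL60 ch+ and ch– and 5 between the lines late; at an adjusted p under 0.05, 0 in HL60 ch+ against ctrl, 2 between HL60 ch+ and ch– and 4 in ML1 late against ctrl; with the lines pooled, 1 in ch+ against ctrl (Esam, lower), 1 between ch+ and ch–, 8 in late against ch+ and 4 in late against ctrl, beside 6.17%, 6.26%, 19.7% and 21.5% of all genes. Clec14a reversed to 0.19 in ML1 late against ctrl on scaling to the mean total and to 0.0651 in late against ch+ with the lines pooled. With 1 library left out, counts ran from 0 to 1 (HL60 ch–), 0 to 2 (HL60 ch+), 0 to 3 (HL60 late), 0 to 1 (ML1 ch+) and 4 to 8 (ML1 late) against ctrl, 2 to 5 between HL60 ch+ and ch–, 2 to 5 (HL60) and 2 to 6 (ML1) in late against ch+, and 2 to 3 between the lines late. The labels give ch+ and ch– libraries no shared number. Taken as pairs in the order of their numbers, they deviated from their group means with correlations of -0.0209 to 0.0463, and 3 of 6 ch+ libraries correlated best with their own partner, so the order was not taken as a pairing. With a replicate block by this order, ch+ against ch– called 5 endothelial genes in HL60 (Flt4 was added), 1 in ML1 and 0 for the line difference. With 3 libraries per group and unknown depth of each, changes of weakly expressed genes may be understated, and 12 endothelial genes could not be tested. The ML1 late label, the unstated CD31 gate and the unequal library totals limit what the late comparisons mean.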
